A study of Sus scrofa with 6 samples.

Results

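Skeletal muscle contracts through the sarcomere, in which myosin heavy chains pull on actin filaments and the troponin complex switches that pull on when calcium is released. Fast and slow fibres build the same machinery from different genes, so myosin and troponin isoforms are the usual way to tell fibre types apart. An artery wall is made of smooth muscle, which uses its own myosin and has no troponin complex. Transcripts of 10 skeletal isoform genes were followed in pig femoral arteries: 7 of fast fibres (the myosin heavy chains MYH1, MYH2 and MYH4, the regulatory light chain MYLPF, and the troponin subunits TNNC2, TNNI2 and TNNT3) and 3 of slow fibres (MYH7, TNNC1 and TNNT1). MYH7 and TNNC1 are also the isoforms of heart muscle.

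The genes were chosen by name, and every non-control probe whose RefSeq transcript belongs to one of them was taken. This gave 42 probes on the array, of which 41 were kept among 43380 probes in all, and 24 passed the scanner's test of being well above background on 3 or more of the 6 arrays. All 10 genes, of 2384 named on the array, had such a probe. MYH1 was covered by 7 probes, MYH4 and MYH7 by 8 each, TNNT1 and TNNT3 by 4 each, MYH2 and MYLPF by 3 each, TNNC2 and TNNI2 by 2 each and TNNC1 by 1. In the gene order of the pig assembly Sscrofa11.1, MYH4, MYH1 and MYH2 are direct neighbours, and these 3 heavy chains are close copies of one another. Probe sequences were not analysed here, so a signal shared by these paralogs could not be split, and their separate values are uncertain.

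The samples were femoral arteries of pigs (Sus scrofa), taken ex vivo at the site of a puncture on the left side, with 3 arteries closed with TAG, a vascular glue, and 3 with Exoseal, a marketed closure device. Breed, age, sex and the time between closure and sampling are not given in the sources used here. The labels do not tie arteries to animals. The p-values therefore rest on sample-to-sample spread, part of which may be technical. Exoseal replicate 1 is labelled Exoseal by its title and TAG by its treatment entry, and was placed in Exoseal by title.

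The arrays differed in ways that touch dim genes. The 3 TAG arrays and Exoseal replicate 1 were scanned as 1 slide and Exoseal replicates 2 and 3 as another. Probes well above background made up 34.7% to 41.2% of all probes on TAG arrays and 60.6% to 70.8% on Exoseal arrays. Negative control spots averaged 18.0 to 30.9 signal units on slide 1 against 1.82 and 1.63 on slide 2. Levels are given as log2 of the processed signal over the 75th percentile of that array, so 0 means the brightness of that percentile. A level not well above background is a limit of the measurement and no level of the transcript. Of 20857 features tested across the array (1 probe for each named gene, and every unnamed probe), limma called 2139 different between the groups at an adjusted p of 0.05, or 10.3%.

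Smooth muscle transcripts were bright as a sum on every array, with CNN1 and DES the brightest. MYOCD was not bright, at a log2 level of -0.26 to 1.62. All 5 smooth muscle markers measured were well above background on all 6 arrays, with a summed level of 450 to 528 times the array's 75th percentile in TAG and 248 to 277 times in Exoseal. The summed level of the 10 skeletal genes was 19.2 to 32.9 in TAG and 11.8 to 46.8 in Exoseal. In bulk tissue, fewer cells of a type and less RNA per cell cannot be told apart. Of 3 heart markers on the array, TNNI3, the inhibitory troponin of heart muscle, was well above background on all 6 arrays, NPPA on 2 and NPPB on none. TNNI3 had a difference of 0.56 and did not pass, and the part of heart transcripts in MYH7 and TNNC1 was not tested.

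None of the 10 genes passed between TAG and Exoseal in limma, where 10.3% of all features did. An unadjusted p under 0.05 was found for 1 of the 10 (TNNC1) and for 30.2% of all features. The median log2 difference (TAG minus Exoseal) was -0.42 over the 10 genes and 0.03 over all features tested. It was -0.25 over the 9 genes whose brightest kept probe was above background on some TAG array, which leaves out MYH4. Its sign was not stable: it was 0.38 without TAG replicate 1, 0.27 with genes as the mean of their probes, 0.44 over the 6 genes above background on all arrays, and near 0 (-0.00027) without Exoseal replicate 2. For the 7 fast genes it was -0.59 (-0.42 without MYH4), with 5 fitted values negative and 2 positive, and for the 3 slow genes 0.63, with 1 negative and 2 positive. The fast median was negative under the other scalings too, from -1.05 with median scaling to -0.19 with quantile scaling, and the slow median was positive there, from 0.02 to 0.77. Median scaling moved the median of all features to -0.43, so there the fast genes lay below and the slow genes (0.17) above it. Within slide 1 both were negative (-0.56 and -0.39), and without TAG replicate 1 the fast median was 0.36. Over genes above background on all arrays, 3 of each class, the fast median was 0.34 and the slow median 0.63. Without Exoseal replicate 2 these medians were -0.04 and 0.17, and with genes as the mean of their probes -0.09 and 1.06. The negative fast median was thus not seen among the fast genes detected on every array. The difference between fast and slow genes was not tested.

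**Figure D1:**
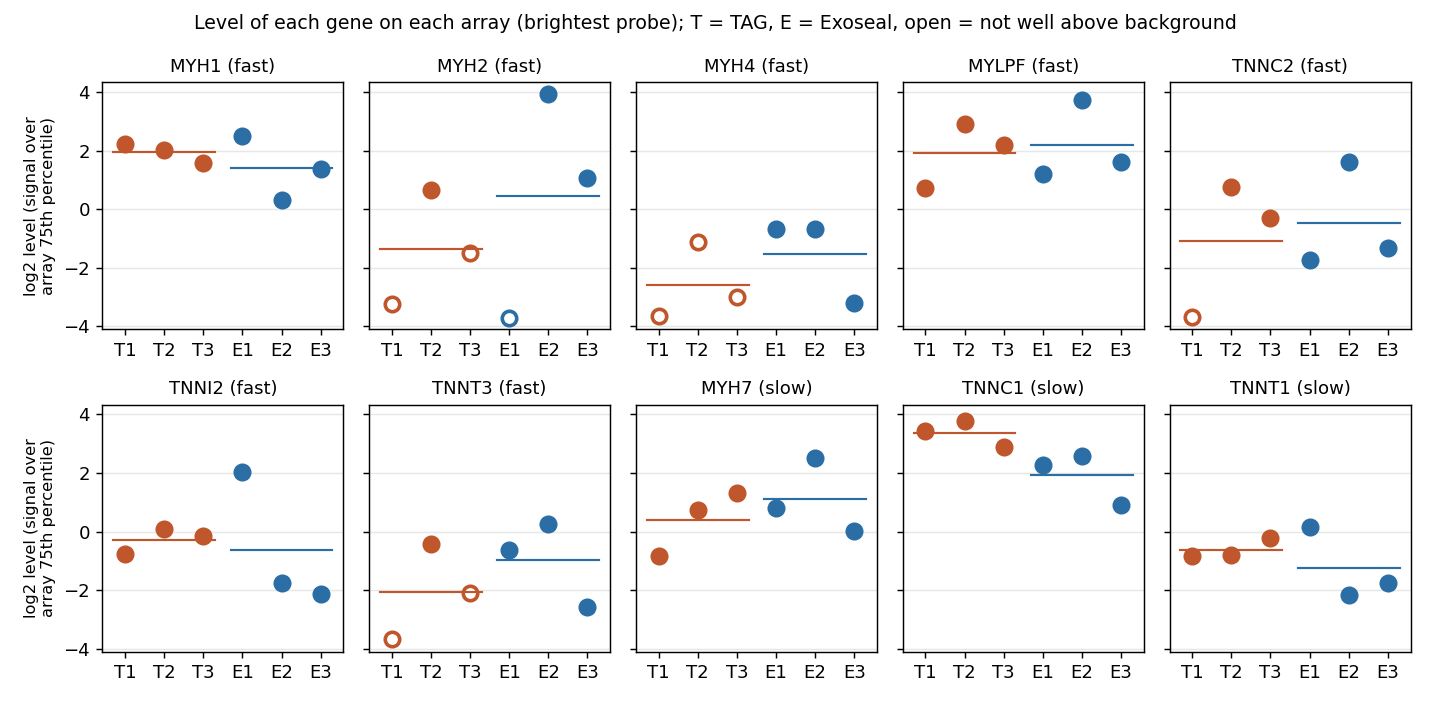
Log2 level of each gene on each array by its brightest probe, in units of log2 signal over the array's 75th percentile, with 7 fast genes followed by 3 slow genes. T1 to T3 are TAG, E1 to E3 are Exoseal, lines are group means of 3 arrays and open circles are not well above background. MYH2 has the widest spread of points, with 3 of 6 at background, and TNNC1 is the one gene whose groups do not overlap.

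Among the fast myosin heavy chains, MYH2, the motor of fast oxidative fibres, varied most. Its brightest probe read -3.23, 0.65 and -1.51 on TAG replicates 1 to 3 and -3.71, 3.94 and 1.07 on Exoseal replicates 1 to 3. It was well above background on TAG replicate 2 and Exoseal replicates 2 and 3 alone, and the groups overlapped. The difference was -1.80 ± 1.67 (SE, n = 3 arrays per group; adjusted p = 0.509 in limma). By this probe Exoseal replicate 2 stood 2.87 log2 units above the next highest array, a gap reached by 0.00959% of all features tested. MYH2 and MYH7 were 2 of 10 genes with a gap of at least 1 log2 unit there, against 4.75% of features. The other tested MYH2 probe read -3.68, -1.92 and -0.11 in TAG and -1.81, 0.60 and -2.26 in Exoseal. It was also highest on Exoseal replicate 2, but by less, and was well above background on TAG replicate 3 and all Exoseal arrays. Its correlation with the brightest probe was r = 0.59 and rho = 0.31.

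MYH1, the motor of another fast fibre type, gave different pictures with different probes. By its brightest probe it was well above background on all arrays, at 2.23, 2.00 and 1.58 in TAG and 2.50, 0.30 and 1.36 in Exoseal. The TAG values lay inside the Exoseal range, and the difference was 0.55 ± 0.59 (adjusted p = 0.572 in limma). Its second brightest probe read -3.73, 0.58 and -2.73 in TAG and 0.70, 2.42 and -0.14 in Exoseal. That probe was high where the MYH2 probe was high, on Exoseal replicate 2, and was well above background on 1 of 3 TAG arrays. Its difference was -2.95 ± 1.06 (adjusted p = 0.0979 in limma over all probes).

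MYH4, the motor of the fastest glycolytic fibres, was represented by a dim probe, because its brightest probe carried an outlier flag on Exoseal replicate 2. The probe that stood for it was not well above background in TAG (0 of 3 arrays), so no difference is given. On Exoseal arrays it read -0.69, -0.68 and -3.20. The probe left out had signals of 2.14, 52.9 and 29.5 units in TAG and 12.4, 3568 and 420.0 units in Exoseal. It was well above background on replicates 2 and 3 of both groups, so MYH4 was not undetected in TAG. On that probe the flagged spot was the brightest of the 6, and Exoseal replicate 3 came next. With flagged spots kept, its difference was -2.44 ± 1.80 (adjusted p = 0.395 in limma).

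MYLPF, the regulatory light chain of fast fibres, was well above background on all 6 arrays. It read 0.71, 2.90 and 2.17 in TAG and 1.21, 3.72 and 1.59 in Exoseal. The groups overlapped, with TAG replicate 2 above Exoseal replicates 1 and 3, and the difference was -0.25 ± 0.77 (adjusted p = 0.860 in limma). It turned positive within slide 1 (0.72), without Exoseal replicate 2 (0.53) and without TAG replicate 1 (0.36), and did not pass in any of these.

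The fast troponin subunits did not share one pattern. TNNC2, the calcium sensor of the fast complex, read -3.67, 0.75 and -0.31 in TAG and -1.74, 1.60 and -1.32 in Exoseal. It was highest on Exoseal replicate 2 and lowest on TAG replicate 1, where it was not above background, and its difference was -0.59 ± 1.17 (adjusted p = 0.774 in limma). TNNT3, the subunit that ties the fast complex to tropomyosin, read -3.66, -0.42 and -2.11 in TAG and -0.61, 0.27 and -2.57 in Exoseal. It was above background on 1 of 3 TAG arrays and had a difference of -1.09 ± 0.91 (adjusted p = 0.455 in limma). TNNI2, the inhibitory subunit, was highest on another array: it read -0.76, 0.07 and -0.15 in TAG and 2.02, -1.74 and -2.14 in Exoseal, above background throughout.

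TNNI2 thus had all 3 TAG values between Exoseal replicate 1 and the other two Exoseal arrays, and its difference was 0.34 ± 0.96 (adjusted p = 0.843 in limma). Within slide 1, which sets TAG against Exoseal replicate 1 alone, it was -2.30 (adjusted p = 0.0374), a fit in which the spread comes from the TAG arrays and the lone Exoseal array is assumed to vary like them. Without Exoseal replicate 1 it was 1.66 (adjusted p = 0.0126). Adjusted p ran from 0.0126 to 0.993 over its 18 alternatives. In these 2 fits, 11.4% and 33.4% of all features were called. The difference was also negative without Exoseal replicate 2 (-0.22), without Exoseal replicate 3 (-0.42) and with quantile (-0.19) or median scaling (-0.12), and did not pass there.

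Of the slow genes, TNNC1, the calcium sensor of slow fibres and heart, came nearest to a difference. It read 3.44, 3.77 and 2.88 in TAG and 2.29, 2.56 and 0.91 in Exoseal, and was above background on all arrays. Every TAG array lay above every Exoseal array, as for 19.0% of all features (16.7% lay the other way), and the difference was 1.44 ± 0.54 (adjusted p = 0.112 in limma). It was positive under all 18 alternatives, from 0.94 to 1.76, with adjusted p from 0.0268 (without Exoseal replicate 1) to 0.319. A single probe measured it.

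MYH7, the motor of slow fibres, read -0.83, 0.75 and 1.31 in TAG and 0.80, 2.51 and 0.03 in Exoseal by its brightest probe. It was highest on Exoseal replicate 2, like MYH2 and MYLPF, and the groups overlapped, with a difference of -0.70 ± 0.75 (adjusted p = 0.568 in limma). Without Exoseal replicate 2 the difference was -0.0047. TNNT1, the slow counterpart of TNNT3, read -0.82, -0.81 and -0.22 in TAG and 0.16, -2.17 and -1.74 in Exoseal, above background throughout. As with TNNI2, the TAG values fell between Exoseal replicate 1 and the other two Exoseal arrays. Its difference was 0.63 ± 0.63 (adjusted p = 0.536 in limma), and -0.78 within slide 1.

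**Figure D2:**
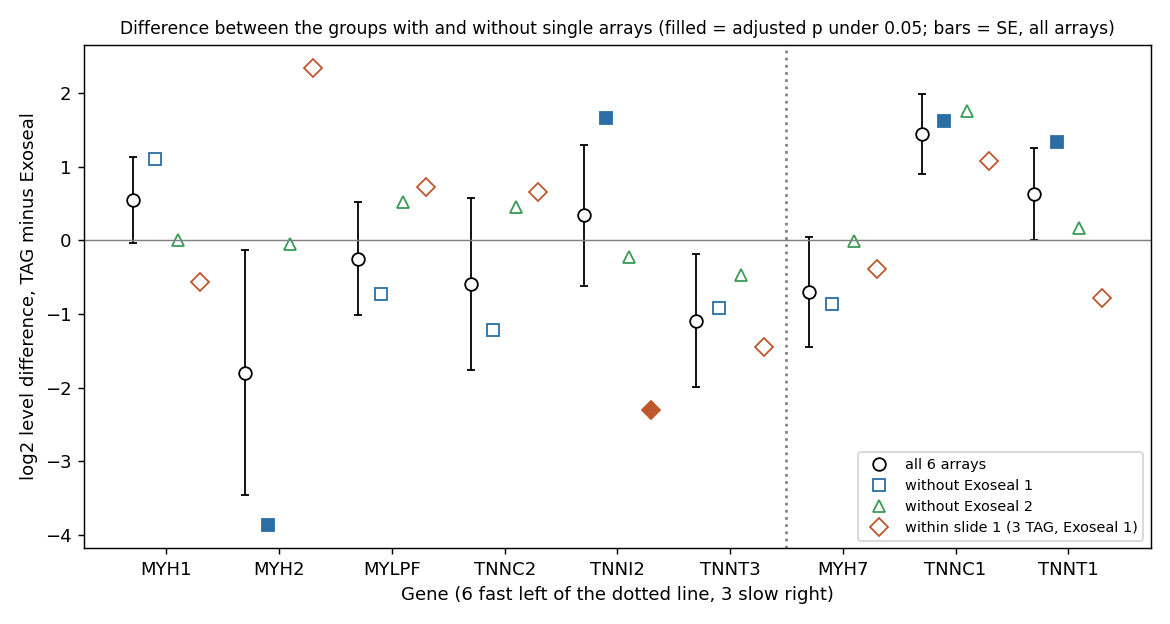
Log2 level difference (TAG minus Exoseal) of 9 genes with all 6 arrays, without Exoseal replicate 1, without Exoseal replicate 2, and within slide 1. Bars are standard errors for all 6 arrays, and filled markers have an adjusted p under 0.05 in limma. Of the 9 genes, 6 lie on both sides of 0 over these fits (MYH1, MYH2, MYLPF, TNNC2, TNNI2 and TNNT1), and TNNC1 stays above 0. MYH4 is not drawn because the dim probe that stood for it was at background on all 3 TAG arrays. A brighter MYH4 probe, left out for a flagged spot, was above background on TAG replicates 2 and 3.

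Leaving out Exoseal replicate 1, the array with 2 treatments in its labels, gave 4 calls among the 10 genes, against 33.4% of all features in that fit. MYH2 was lower in TAG (-3.87), and TNNC1 (1.62), TNNI2 (1.66) and TNNT1 (1.34) were higher. Of the 24 probes 9 were called, against 34.0% of all probes. Both counts lie near the background share. With slide as a block 1 gene and 2 probes were called, all of TNNI2, against 8.87% of features and 8.99% of probes, and within slide 1 the same 2 probes were called against 12.7%. Counting Exoseal replicate 1 as TAG, as its treatment entry has it, called MYH2 and TNNI2 among 16.9% of features and 4 probes among 16.7%. Over the alternatives adjusted p ran from 0.00251 to 0.989 for MYH2 and from 0.0358 to 0.956 for TNNT1. Leaving out any one of the other 5 arrays gave 0 calls among the 10 genes in limma, with 0 or 1 at an unadjusted p under 0.05, and 0 features of any kind were called there, with 19.6% to 27.3% of them at an unadjusted p under 0.05.

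Across the 24 tested probes none passed in limma, against 10.8% of 22720 probes. An unadjusted p under 0.05 was found for 2 of the 24 and for 7035 of all probes tested. The probes sorted by the array on which they were highest: 12 peaked on Exoseal replicate 2, where 20.7% of all probes peaked, 10 on Exoseal replicate 1 (23.0% of all probes) and 2 on TAG replicate 2. These counts include probes that passed the filter through Exoseal arrays alone. Of the 18 probes above background on some TAG array, 11 peaked on Exoseal replicate 2, 6 on Exoseal replicate 1 and 1 on TAG replicate 2. Both kinds of probe occurred within one gene. MYH1 had 2 probes that peaked on Exoseal replicate 2 and 3 on Exoseal replicate 1, and MYH7 had 2 of each, with both of its Exoseal replicate 1 probes at background in TAG. Both TNNI2 probes peaked on Exoseal replicate 1, and both MYH2 and both TNNC2 probes on Exoseal replicate 2. For the MYH4 probe the 2 Exoseal arrays differed by 0.01 log2 units, so their order carries no weight.

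Probes of one gene could be close or opposed. The TNNI2 probes differed from Exoseal by 0.28 and 0.34, and their levels correlated with r = 1.00 over the 6 arrays. The 2 brighter MYLPF probes correlated with r = 0.99, and the third, at background in all of TAG, with r = 0.23 to the brightest. For MYH7 the second brightest probe followed the brightest (r = 0.76), while the other two tested probes did not (r = -0.19 and -0.36). Against the brightest MYH1 probe the other 4 ranged from r = -0.73 to 0.84. These correlations are descriptions over 6 arrays that share each array's brightness and background. On TAG arrays 6 of the 24 probes were at background throughout, among them all 3 tested probes of MYH4 and 2 of MYH7. The brighter MYH4 probe left out is not among the 24.

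**Figure D3:**
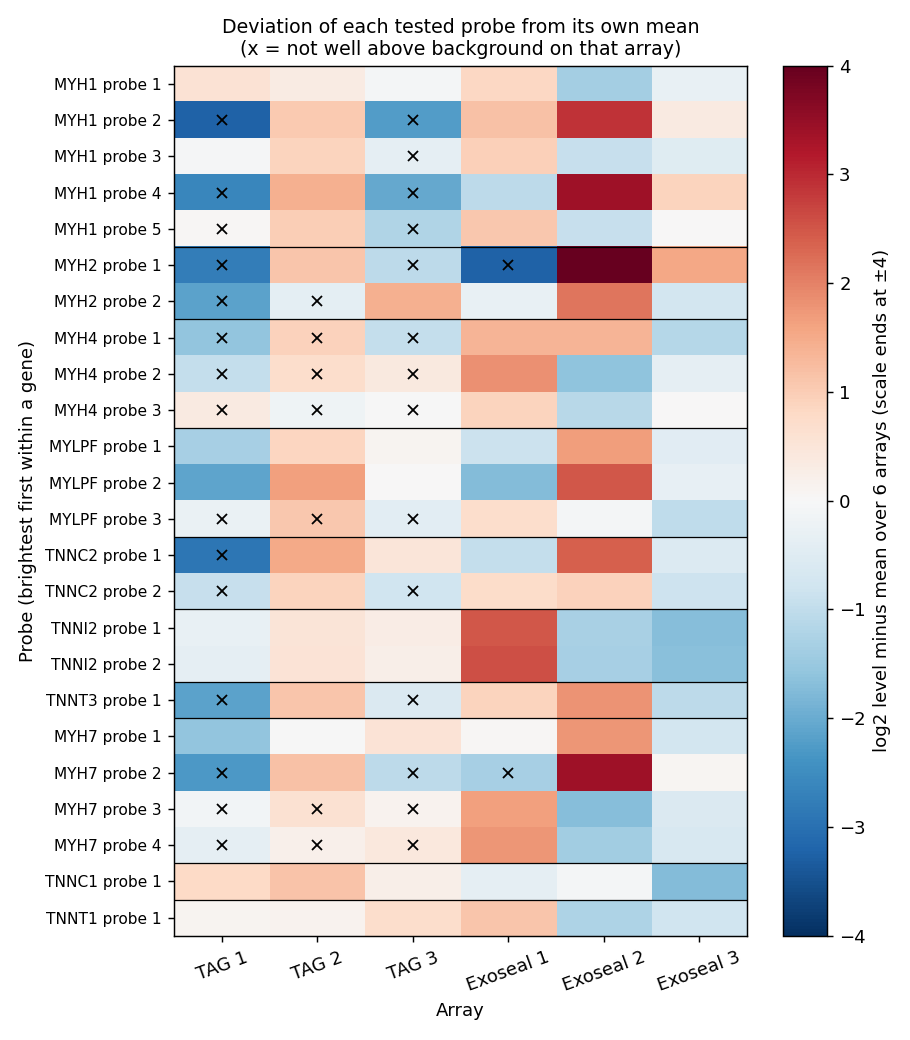
Deviation of each of the 24 tested probes from its own mean over 6 arrays, in log2 units, with probes in rows by gene (brightest first) and arrays in columns. Red is above and blue below the mean, and a cross marks a probe not well above background on that array. Of the probes, 12 are highest on Exoseal replicate 2 and 10 on Exoseal replicate 1, with both kinds within MYH1 and MYH7.

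The genes did not order the arrays of a group in one way. In TAG, 7 of 10 genes were highest on replicate 2 (34.3% of all features) and 8 of 10 were lowest on replicate 1 (29.4% of all features), but 4 of the 10 were at background on replicate 1, where values have no firm order. Of the 6 genes above background on all arrays, 3 were highest on TAG replicate 2 and 4 lowest on TAG replicate 1. In Exoseal, 7 of 10 were highest on replicate 2 (28.1% of all features), 3 on replicate 1 (43.8%) and none on replicate 3 (28.0%), and the lowest array was replicate 1 for 3 genes, replicate 2 for 2 and replicate 3 for 5. MYH1, TNNI2 and TNNT1 were highest on Exoseal replicate 1, where MYH2 was lowest. The standard deviation within TAG had a median of 1.11 for the 10 genes, 0.44 for the 6 above background on all arrays and 0.35 for all features. Within Exoseal the medians were 1.40, 1.26 and 0.72.

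Pairs of genes were compared over the 6 arrays to see whether fast and slow members moved together. In all 45 pairs were computed with exact two-sided permutation tests, 11 had an unadjusted p under 0.05 for Pearson's r, and none passed after adjustment (smallest adjusted p = 0.125). With 6 arrays there are 720 orderings, so the smallest possible p is too large for 1 pair to pass alone over 45 pairs. The absence of calls therefore carries little weight. Median r was 0.42 over 21 fast pairs, 0.14 over 21 pairs of a fast with a slow gene and -0.01 over 3 slow pairs. This order held on deviations from group means, with medians of 0.43, 0.39 and 0.05. It did not hold in other settings. Without the 2 farthest arrays the medians were 0.16, 0.28 and 0.70, which put fast pairs lowest. Without Exoseal replicate 2 they were 0.48, 0.36 and 0.43, with fast pairs still highest. By the brightest probe of each gene, isoform class did not sort the pairs. TNNI2 with TNNT1, a fast and a slow gene, had one of the highest r values. MYH1 and MYH2, both fast, had the lowest of all, but that value was computed on the brightest probe of each, and the MYH1 probes were divided. The second brightest MYH1 probe, high where MYH2 was high, correlated with the brightest at r = -0.48, and another at r = -0.73. The remaining tested MYH1 probes followed the brightest (r = 0.84 and 0.71).

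The closest pair was MYLPF with TNNC2, both fast, at r = 0.974 and rho = 1.00 (exact permutation p = 0.00278 for each, adjusted p = 0.125 for each). Without the 2 arrays farthest from the median of MYLPF, r was 0.998, and without Exoseal replicate 2 it was 0.973. MYH4 and TNNT3 followed with r = 0.963 and rho = 0.943 (exact permutation p = 0.00556 and 0.0167, adjusted p = 0.125 and 0.25), but most of their TAG values were not above background. These values used the dim MYH4 probe and not the brighter one left out. TNNI2 and TNNT1 had r = 0.897 and rho = 0.886 (exact permutation p = 0.0181 and 0.0333, adjusted p = 0.169 and 0.328), and r = 0.889 without the 2 farthest arrays. MYH1 and MYH2 had r = -0.899 and rho = -0.943 (exact permutation p = 0.0139 and 0.0167, adjusted p = 0.169 and 0.25), and r = -0.592 without the 2 farthest arrays. MYH7 with MYLPF, a slow and a fast gene, had r = 0.854 and rho = 0.714 (exact permutation p = 0.0319 and 0.136, adjusted p = 0.169 and 0.34), and r = 0.296 without the 2 farthest arrays, so that relation rests on them.

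**Figure D4:**
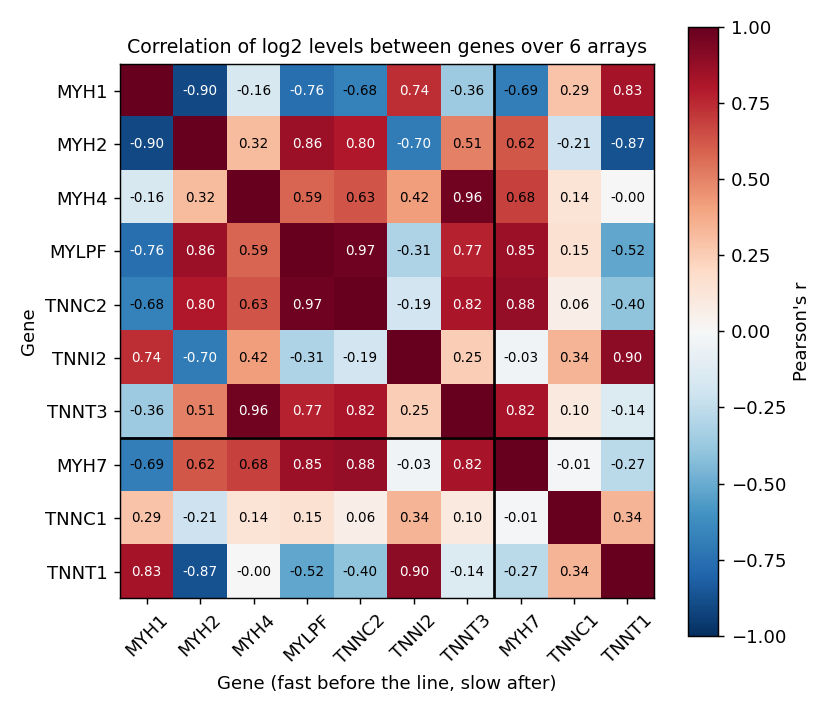
Pearson's r between the log2 levels of each pair of the 10 genes (brightest probe) over 6 arrays, with fast genes before the line and slow genes after it. Red is positive and blue negative. MYLPF with TNNC2 has the highest value (0.974) and MYH1 with MYH2 the lowest (-0.899). No pair passes after adjustment over the 45 pairs, where 6 arrays cannot let 1 pair pass alone.

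Among 1613 other named genes tested, those most like MYLPF over the 6 arrays were GSTO1 (r = 0.991), CD163 (0.979), TNNC2 (0.974), TCAP (0.951) and MEG3 (0.947). TCAP caps titin at the edge of the sarcomere, GSTO1 is a glutathione transferase, and CD163 is a scavenger receptor of macrophages. CD163 read 1.12, 3.04 and 2.49 in TAG and 0.98, 3.77 and 1.58 in Exoseal, the same order of arrays as MYLPF within each group. Those most like MYH7 were CWF19L2 (0.883), TNNC2 (0.875), SRSF11 (0.875), CTSV (0.874) and TCAP (0.867). These are the highest of many values over 6 arrays and are given as a description.

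Of 50 other sarcomere genes listed, 25 were on the array by name, 20 were tested, 3 rose in TAG and 0 fell in limma. Among all features 6.59% were called higher and 3.67% lower. The list's median log2 difference was 0.61, against 0.03 for all features. ACTA1, the actin of skeletal thin filaments, read 5.57, 5.80 and 5.62 in TAG and 2.96, 3.17 and 3.41 in Exoseal, with every TAG array above every Exoseal array. Its difference was 2.48 ± 0.41 (adjusted p = 0.0210 in limma, 0.000771 to 0.818 over 18 alternatives). ACTA1 had 16 tested probes, of which 3 passed, 9 were positive and the median was 0.25, and the mean of its probes had a difference of 0.30. TPM1, a tropomyosin of several muscle types, rose by 1.95 ± 0.54 by the brightest of its 21 probes (adjusted p = 0.0497 in limma). CAPZB, a capping protein of actin filaments found in all cells, rose by 1.87 ± 0.48 by the brighter of its 2 probes (adjusted p = 0.0413). The other probes of these genes are not reported here.

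Genes nearest the threshold in that list were PDLIM3 (1.48), ANKRD1 (1.56), TNNI1 (1.41), FHL1 (0.71) and TPM2 (0.94), none of which passed, and CAPN3, which was at background in all of TAG. TNNI1, the slow counterpart of TNNI2, read -0.43, 0.04 and 0.61 in TAG and 0.49, -2.91 and -1.61 in Exoseal. Like TNNI2 and TNNT1 it was higher on Exoseal replicate 1 than on the other two Exoseal arrays. Outside the naming rule, and chosen after its values were seen, MYL1, the essential light chain of fast fibres, read 0.01, 2.40 and 1.70 in TAG and -0.35, 2.90 and 1.70 in Exoseal. Its highest array was Exoseal replicate 2 and its next TAG replicate 2, as for MYLPF, and its difference was -0.04 (adjusted p = 0.979 in limma).

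Of 48 genes of fibre metabolism, calcium release and muscle gene control, 25 were on the array by name, 18 were tested, 1 rose and 1 fell, with a median of 0.35. FABP3, a fatty acid carrier of oxidative muscle and heart, rose by 2.92 ± 0.53 (adjusted p = 0.0229). PFKM, the muscle form of phosphofructokinase, fell by 1.93 on the log2 scale (SE 0.50, adjusted p = 0.0420). CKMT2 (2.23), ATP2A2 (-1.82), MEF2A (1.11), PPARGC1A (0.95) and DMD (1.08) were among those nearest the threshold and did not pass. The 5 calls of both lists became 0 with median scaling and on leaving out any array other than Exoseal replicate 1, and 15 without that array, which again follows the calls over all features.

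Some markers of other cells passed the test between the groups. The summed level of 8 macrophage genes was 16.2 to 23.9 in TAG and 46.7 to 86.1 in Exoseal. In limma 3 of 8 fell (AIF1, LYZ and CD86), against 3.67% of all features, and CD86 was above background on 1 of 3 TAG arrays. The list did not go one way: 5 differences were negative and 3 positive (C1QA at 0.68, CD14 at 0.23 and CD163 at 0.10). Every TAG array lay above every Exoseal array for C1QA. The summed level of 4 endothelial genes was 6.74 to 10.9 in TAG and 16.2 to 53.8 in Exoseal, highest on Exoseal replicate 2. Of these, 1 of 4 fell (CDH5), with 3 differences negative and 1 positive (ENG at 0.84). The fibroblast list had 1 gene on the array, DCN, which did not pass, at 216 to 239 in TAG and 99.8 to 141 in Exoseal. For 6 adipocyte genes the sum was 80.9 to 92.6 in TAG and 81.5 to 122 in Exoseal, and 0 of 3 tested passed in limma (FABP4 at -0.16 and LPL at -0.79, with none of the 3 at an unadjusted p under 0.05). That sum is mostly FABP4, whose log2 level was 6.28 to 6.90. ADIPOQ, PLIN1 and CIDEC were above background on 2, 2 and 1 of 6 arrays. In the smooth muscle list ACTA2 and DES rose, 2 of 5, against 6.59% of all features called higher. The others did not pass, with CNN1 positive (0.73) and MYLK (-1.37) and MYOCD (-0.52) negative. The part of these cells, and of the number of probes detected, in the levels of the 10 genes was not tested.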

How the data were processed

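RNA of 6 pig arteries was measured on 1-colour Agilent arrays, labelled with Cy3 per the labels' protocols. The deposited scanner files hold spot intensity from Agilent Feature Extraction 11.0.1.1, per the file headers: a processed signal, background-subtracted and detrended within an array and not scaled between arrays. A deposited table holds the authors' log2 values, whose medians are near 3.40 on every array. Their normalisation is not stated by any source used. The flag columns are the scanner's own, per the file headers.

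Control spots (1417 of 45220) and spots with an outlier flag were left out, spots of a probe were averaged as log2, and each array's 75th percentile was subtracted. No spot was saturated. Probes were named through RefSeq transcripts of Sscrofa11.1 (5435 of 43380 probes, 2384 symbols), for names and gene order alone. The brightest probe stood for a gene. Features well above background on at least 3 arrays entered a limma fit (limma 3.58.1, R 4.3.3; two-sided, Benjamini-Hochberg, no covariates), tested on simulated data. The genes named were the 10 members; of each muscle list, genes past the threshold, ACTA1 and the next 6 by p; marker genes past the threshold or among the 2 brightest; and the 5 genes most like MYLPF and MYH7. A result under this rule is not reported here. Errors of differences are standard errors. The members and lists were chosen with earlier results of these data known. The scanner files hold median rather than mean spot signals, so normexp used those. The number of arrays limits precision.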

Additional observations from a re-analysis of the deposited data

How the results depend on the processing

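For the 10 genes, 145 of 176 alternative values kept their direction and their side of the threshold, 25 changed sign and 6 came to pass with the same sign. Of those that changed sign 2 passed as well, which makes 8 that passed. Calls among the 10 genes rose from 0 to 1 with slide as a block and 1 within slide 1 (TNNI2 in both), to 2 with Exoseal replicate 1 counted as TAG, and ran from 0 to 4 on leaving out single arrays. Calls among their probes were 2, 2, 4 and 0 to 9 in the same order. The 5 list calls became 0 with median scaling, 0 without the filter on dim probes, 0 with the replicate block, 3 within slide 1, 2 as the mean of probes and 0 to 15 on leaving out arrays. The 2139 features called became 1172 with normexp and quantile scaling, 1105 with median scaling, 0 without the filter, 0 with the replicate block, 3529 with Exoseal replicate 1 counted as TAG and 0 to 6957 on leaving out arrays. Without the filter 13159 features had an unadjusted p under 0.05 in limma, and with the replicate block 5699 did. Same-numbered samples share only a number, with correlations of their deviations of -0.20, 0.07 and -0.08, so the block pairs nothing known.

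Signs changed as the mean of probes for MYH1 (-0.39), MYH4 (0.74, against a fitted -1.06 that is no measurement), MYH7 (0.23) and TNNT3 (0.45). With slide as a block, and equally within slide 1, they changed for MYH1 (-0.56), MYH2 (2.35), MYLPF (0.72), TNNC2 (0.66), TNNI2 (-2.30) and TNNT1 (-0.78). With quantile scaling MYLPF had 0.0298 and TNNI2 -0.19, and with median scaling TNNI2 had -0.12. Leaving out single arrays gave -0.73 to 0.53 for MYLPF, -1.51 to 0.70 for TNNC2 and -0.42 to 1.66 for TNNI2. The cause of these changes was not tested. Keeping flagged spots, and other scalings for the pairs of genes, were chosen after seeing the data. They changed no call among the 10 genes, their probes or their pairs, with 0 pairs past the threshold by each scaling (11 unadjusted at the scaling used). With 6 arrays 1 pair could not pass alone. With flagged spots kept, 2077 of 21035 features were called. On TAG arrays, dim probes limit what can be compared.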

Other observations

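Exoseal replicate 2 was above every other array by at least 1 log2 unit for 990 of 20857 features (4.75%) and for 78 of 1614 named genes, 2 of them among the 10 muscle genes (MYH2 and MYH7). It was so by at least 2 log2 units for 4 named genes, which were MYH2 (2.87), MYOT (2.44), IL1B (2.17) and MITF (2.05), chosen here after their values were seen. MYOT encodes myotilin of the skeletal Z-disc, and IL1B an inflammatory cytokine. MYOT read -3.48, -0.01 and 0.75 in TAG and -3.93, 3.19 and 0.29 in Exoseal, and was not above background on TAG replicate 1 or Exoseal replicate 1.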
